A study of Homo sapiens with 2 samples.

Results

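The genes described here are 31 targets of the transcription factor p53, taken as a list of named genes by their known regulation. The list was drawn up with earlier results of these data known. Of the 31, 29 were represented by at least 1 probe set that names a single gene, among 19775 such genes on the array. BTG2 and FDXR were not analysed here. All 29 passed a filter on dim signals that 12225 of the 19775 genes passed. The samples were 2 cultures of HT-29, an established line of human colorectal adenocarcinoma cells. One was transfected with a small interfering RNA (siRNA) against IFITM1 (siIFITM1), which encodes an interferon-induced membrane protein, and the other with an siRNA directed at luciferase of the firefly (siLuc), which human cells do not encode, as the baseline. RNA was taken after 72 h in both, and each was read on 1 Affymetrix array. The labels name no other treatment and do not say whether IFITM1 was targeted with a single siRNA sequence or a pool. With 1 array per siRNA there was no replicate spread to measure a difference by, so no test is given and every comparison is by size.

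p53 is a tumour suppressor that binds DNA as a tetramer after DNA damage and other stress and switches on genes that halt the cell cycle, repair DNA, adjust metabolism or kill the cell. MDM2, itself a target, marks p53 for destruction and so closes a feedback loop. Many of these genes also respond to other factors, so their signals are not a readout of p53 alone.

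The values are MAS5 signals, a linear measure of probe set brightness in arbitrary units, and every log2 ratio is siIFITM1 over siLuc. Signals of different probe sets are not compared with each other, because probe sets differ in how well they bind. IFITM1 itself had a signal of 237 with siIFITM1 and 640.0 with siLuc, which is 37.1% of the baseline, at a probe set whose ID ending marks probes shared between transcripts. The trimmed mean signal was 500.1 on both arrays, and 18 hybridisation controls had a median log2 ratio of -0.07 (range -0.13 to 0.05). Of 10 markers of colon epithelium 9 passed the filter, all among the brighter genes defined below, while the colon transcription factor gene CDX2 was at 19.1 with siIFITM1 and 5.87 with siLuc, both below the filter. The members of this list with the largest ratios by the naming rule were KRT20 (0.36), CDH1 (0.27), LGALS4 (-0.17) and KRT8 (-0.04). Of 10 markers of blood, stromal and endothelial cells 6 passed and none was bright. Single markers went both ways. LUM, a stromal proteoglycan gene, read 386 with siIFITM1 and 132 with siLuc (1.54), and the hemoglobin gene HBB was at 0.59. The B cell gene CD79A was at -0.79 and the collagen gene COL1A1 at -0.49. None of the 10 was at 0, and their summed signal, in which such opposite differences cancel, was 1437 with siIFITM1 and 1359 with siLuc. That sum weighs unlike probe sets by their brightness, so it does not measure an amount of such cells. The part of such cells in the results below was not tested.

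Most p53 targets differed little between the arrays. Among the 29, 18 had a log2 ratio above 0 and 11 below, with a median of 0.13 and a range of -0.46 to 1.17. The median over all 12225 genes past the filter was -0.02, and 47.4% of those genes lay above 0. Of the 29 p53 targets 2, TP53INP1 and PLK3, reached 1.5-fold higher, and 0 reached 1.5-fold lower. The background was 4.18% of genes past the filter for 1.5-fold higher and 7.34% for 1.5-fold lower. TP53INP1 was the 1 member at least 2-fold apart in either direction, against 3.03% of all genes past the filter. These few calls are near what the background gives for a list of this length.

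**Figure D1:**
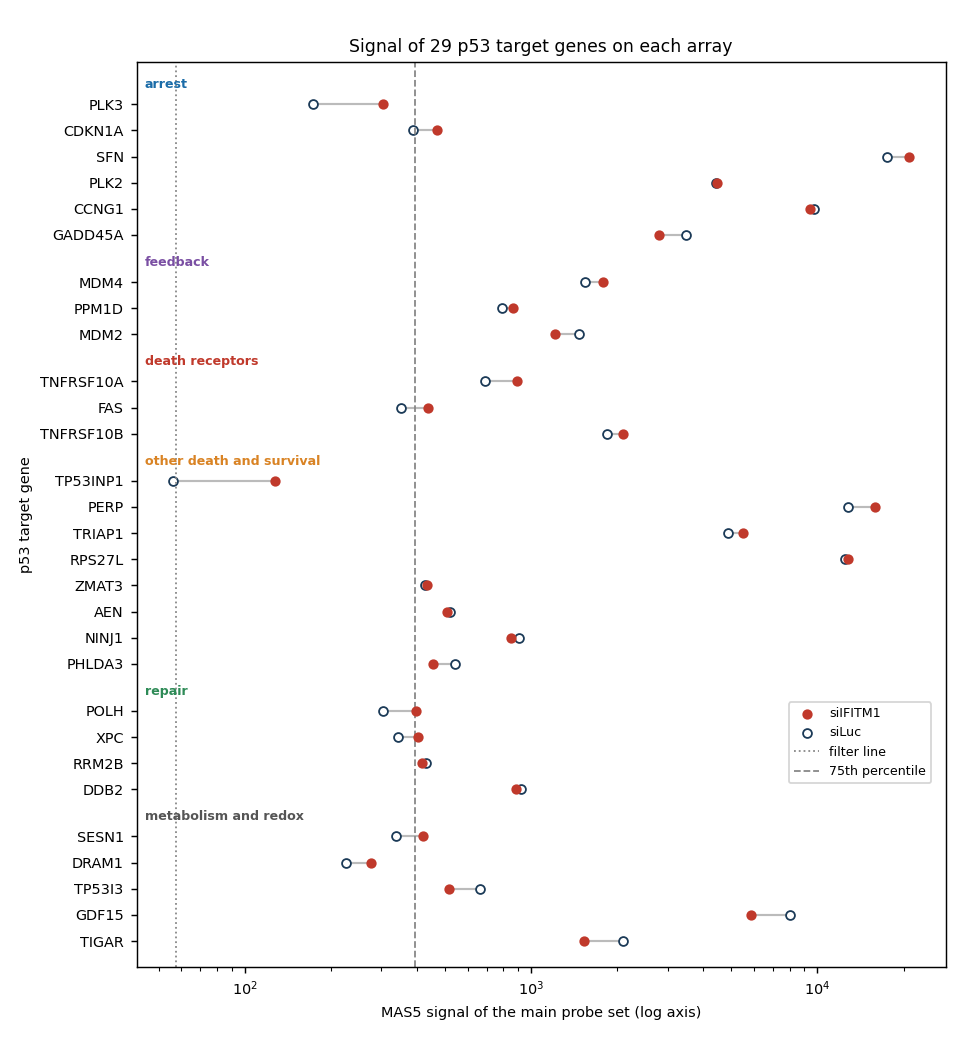
MAS5 signal (horizontal log axis) of the main probe set of each of the 29 measured p53 target genes, grouped by role. Filled points are siIFITM1, open points siLuc (1 array each), the dotted line is the filter at a signal of 57.4 and the dashed line the 75th percentile of probe sets at 393. Most pairs of points lie close together, and TP53INP1 and PLK3 have the widest gaps.

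Brighter and dimmer members are given apart. Genes with a mean signal at or above 393, the 75th percentile of all probe sets, are called brighter, and the other genes past the filter dimmer. Among the 22 brighter p53 targets 11 were above 0 and 11 below, with a median of -0.0083, beside 50.5% above 0 and a median of 0.0031 for all 7793 brighter genes. All 7 dimmer p53 targets were above 0, with a median of 0.31, whereas 41.9% of the 4432 dimmer genes were above 0 and their median was -0.09. These 7 were TP53INP1, PLK3, POLH, FAS, SESN1, DRAM1 and XPC. The count is by main probe set and depends on where the line is drawn. FAS read 436 with siIFITM1 and 351 with siLuc, close to the line. RRM2B, at 416 with siIFITM1 and 430 with siLuc, was a brighter gene and below 0 (-0.05). The probe sets of POLH past the filter ran from -0.16 to 0.96, and the siLuc signal of TP53INP1, 56.3, was below the filter line. Measurement was coarser among dimmer genes. When 1 gene was read by several probe sets, their log2 ratios had an SD (here the within-gene SD) of 0.496 if dimmer and 0.193 if brighter. This SD compares probe sets on the same arrays and holds no spread between cultures. It is a yardstick of size and not the error of the siRNA comparison. At least 1.5-fold higher were 2 of the 7, against 8.26% of all dimmer genes, and 0 of the 22 brighter members were 1.5-fold apart, against 3.63% of all brighter genes. Of the 7 dimmer members 2 differed from 0 by more than the within-gene SD, against 32.4% of all dimmer genes. Of the 22 brighter members 11 did, 5 higher and 6 lower, against 39.3% of all brighter genes.

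**Figure D2:**
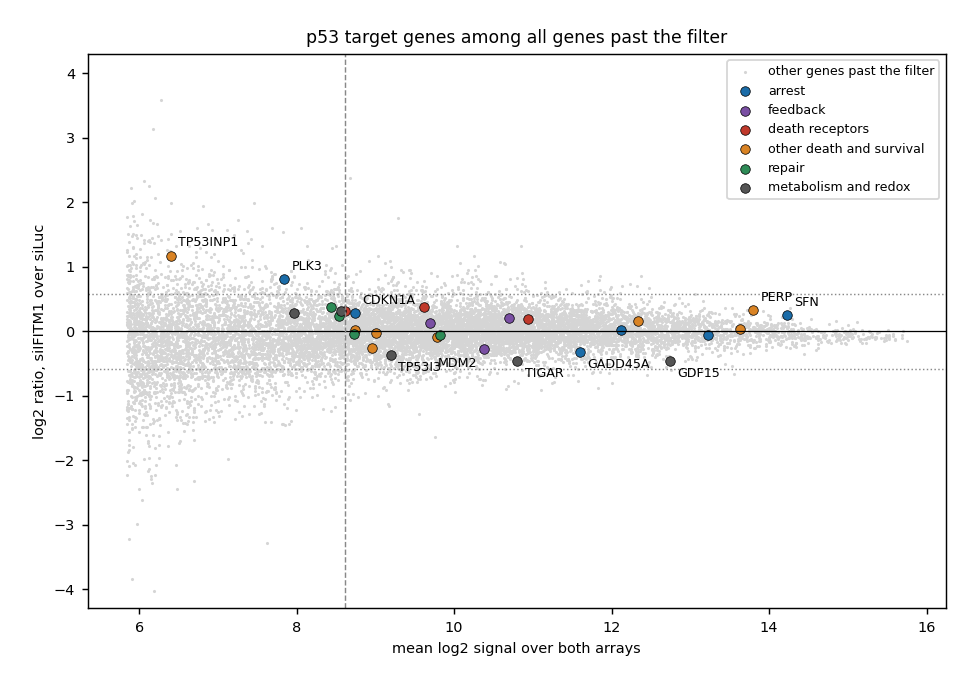
Log2 ratio (vertical) against mean log2 signal over both arrays (horizontal) for all 12225 genes past the filter (grey) and the 29 p53 targets, coloured by role. The dashed vertical line is the 75th percentile of signal and the dotted lines are 1.5-fold. The 7 members left of the dashed line all lie above 0, and the 22 to its right are split evenly.

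The DNA element that p53 binds consists of a pair of ten-base half-sites. It is shown here because these genes were listed for their regulation through it. Promoter windows of 300 bases, 250 before and 50 after each annotated start, were available from RefSeq (GRCh38.p14) for 25 of the 31 genes. They were searched on both strands for the p53 response element, as 2 half-sites at most 1 base apart with at most 3 mismatches in all and none in the C and G of either core. At least 1 window held a match in 8 of the 25 genes (32%), against 2.91% of 27305 genes with a window. By window the shares were 25% of 36 and 2.38% of 35116. The genes were listed as p53 targets, so this is a description of the list and not an independent result. The matches of the 7 genes that were also measured follow 5′ to 3′ on the strand of the gene, with the element in capitals and up to 4 bases on each side.
DDB2 (chr11:47214975-47215003, + strand): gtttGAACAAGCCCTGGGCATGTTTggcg
AEN (chr15:88621302-88621329, + strand): agccGGGCTTGCCCGGGCATGTGGgagc
FAS (chr10:88991305-88991332, + strand): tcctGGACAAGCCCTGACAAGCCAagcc
MDM2 (chr12:68808919-68808946, + strand): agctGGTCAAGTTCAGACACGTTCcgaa
GDF15 (chr19:18386182-18386207, + strand): gcacAGCCATGCCCGGGCAAGAACtc
RPS27L (chr15:63157523-63157550, - strand): ggagGGCCTAGAGCAGACAAGCCCgccc
SESN1 (chr6:109009014-109009041, - strand): gtctGGACAAGTCTCCACAAGTCAgaaa
The DDB2 element had 0 mismatches and a spacer of 1 base, and it began at base 6 of the transcribed region. Those of AEN, FAS and MDM2 had 2 mismatches each and began 34, 122 and 94 bases before the annotated start. GDF15, RPS27L and SESN1 had 3 mismatches each. Among these 7 genes 3 had a log2 ratio above 0 (median -0.03, range -0.45 to 0.31). Among the 16 measured genes whose windows held no match 12 were above 0 (median 0.19, range -0.46 to 0.81). The difference between these sets was not tested. The absence of a match says only that no element meeting these search rules is in this window.

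Among the arrest genes, CDKN1A (Entrez gene 1026) encodes p21, the inhibitor of cyclin-dependent kinases through which p53 halts the cycle. Its signal was 470.0 with siIFITM1 and 387 with siLuc, a log2 ratio of 0.28. This was higher by more than the within-gene SD of 0.193, and it rests on 1 probe set with such shared probes. SFN encodes 14-3-3 sigma, which keeps mitotic kinase complexes out of the nucleus. Its 3 probe sets read 20889.9, 19159 and 1139 with siIFITM1, against 17487, 13775 and 1047 with siLuc. All 3 were higher with siIFITM1, with log2 ratios of 0.26, 0.48 and 0.12.

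PLK3, a polo-like kinase of the stress response, had the second largest ratio of all members. Its main probe set read 304 with siIFITM1 and 173 with siLuc, a log2 ratio of 0.81. The other 2 probe sets of PLK3 read 247 and 130 with siIFITM1, against 166 and 107 with siLuc, with log2 ratios of 0.58 and 0.27. All 3 were higher, and all were dimmer probe sets. PLK2, a related kinase of centriole duplication, read 4472 with siIFITM1 and 4423 with siLuc (0.02). CCNG1, a cyclin that recruits a phosphatase to MDM2, read 9388 with siIFITM1 and 9746 with siLuc (-0.05). Both differences were smaller than the within-gene SD. GADD45A, a stress sensor that binds p21 and the replication clamp, went the other way, at 2789 with siIFITM1 and 3477 with siLuc (-0.32). Of the 6 measured arrest genes 4 were above 0, with a median of 0.14. The promoter of PLK3 is shown because its ratio was the highest among members with a window. It held no match to the element in the 300 bases searched, of which the 250 before the start are given.
PLK3 (chr1:44800127-44800376, + strand): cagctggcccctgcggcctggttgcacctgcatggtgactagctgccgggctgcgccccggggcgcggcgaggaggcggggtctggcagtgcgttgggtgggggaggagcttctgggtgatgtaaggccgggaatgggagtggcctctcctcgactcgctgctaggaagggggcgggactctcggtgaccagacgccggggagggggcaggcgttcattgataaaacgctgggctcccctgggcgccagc

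The feedback regulators of p53 did not share a direction. MDM2, the ubiquitin ligase that targets p53, read 1214 with siIFITM1 and 1470.3 with siLuc, with a log2 ratio of -0.28. The other 3 MDM2 probe sets past the filter were at -0.02, 0.12 and 0.77. A further 6 lay below the filter and ran from -2.68 to 1.35. MDM2 thus had no common direction over its 10 probe sets. MDM4, a relative of MDM2 that masks the activation domain of p53, read 1787 with siIFITM1 and 1548 with siLuc (0.21), and its 6 probe sets ran from -0.99 to 0.77. PPM1D, a phosphatase that removes damage marks from p53, read 867 with siIFITM1 and 792 with siLuc (0.13), with a second probe set at -0.12. The MDM2 window is shown because the element in capitals lies in the second, p53-responsive promoter of the gene. The search passed over any site that lacks the C or G of a core, so the capitals need not mark every p53 site here.
MDM2 (chr12:68808767-68809016, + strand): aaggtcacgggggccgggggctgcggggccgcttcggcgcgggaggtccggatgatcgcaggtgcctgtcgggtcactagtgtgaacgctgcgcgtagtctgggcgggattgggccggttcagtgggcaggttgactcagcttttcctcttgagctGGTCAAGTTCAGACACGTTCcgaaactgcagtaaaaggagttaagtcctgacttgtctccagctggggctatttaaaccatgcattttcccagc

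All 3 death receptor genes were above 0 at their main probe sets, by small amounts. FAS, the receptor for FAS ligand, read 436 with siIFITM1 and 351 with siLuc (0.31). Its 4 probe sets past the filter were all higher, at 0.12 to 0.48, and the fifth, below the filter, was at 0.52. TNFRSF10A, a receptor for the death ligand TRAIL, read 894 with siIFITM1 and 690 with siLuc (0.37), but its other probe sets were at -0.05 and 0.07. TNFRSF10B, the other death-inducing TRAIL receptor, read 2096 with siIFITM1 and 1843 with siLuc (0.19), with further probe sets past the filter at -0.22 and -0.07. Averaged over the probe sets past the filter, TNFRSF10A was at 0.13 and TNFRSF10B at -0.04. Of the 3 receptors, FAS was the only one with a single direction at every probe set.

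TP53INP1 encodes a stress-induced protein that promotes p53 phosphorylation and autophagy, and it had the highest ratio of the 29. Its signal was 127 with siIFITM1 and 56.3 with siLuc, a log2 ratio of 1.17. The siLuc value lay below the filter line of 57.4, so the ratio rests on a signal that may not differ from background. Its other 2 probe sets were below the filter on average, at 15.6 with siIFITM1 and 12.3 with siLuc, and at 5.13 with siIFITM1 and 1.95 with siLuc. PERP, a tetraspan membrane protein gene of desmosomes and of apoptosis, read 15958 with siIFITM1 and 12745 with siLuc (0.32). All 3 PERP probe sets past the filter were higher, at 0.30 to 0.38, the narrowest range among members with 3 or more such probe sets. A pair of very dim PERP probe sets had ratios of -1.74 and -1.36, with all 4 signals at or below 17.3.

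Of the remaining genes of cell death and survival, PHLDA3 was the only one that differed from 0 by more than the within-gene SD. TRIAP1, a small inhibitor of apoptosome formation, read 5486 with siIFITM1 and 4888 with siLuc (0.17). RPS27L, a ribosomal protein relative that modulates p53 stability, read 12835 with siIFITM1 and 12485 with siLuc (0.04), with further probe sets at -0.29 and 0.45. ZMAT3, an RNA-binding zinc finger gene, read 432 with siIFITM1 and 424 with siLuc (0.03), and its 5 probe sets ran from -0.18 to 0.49. AEN, an apoptosis-associated nuclease gene, read 509 with siIFITM1 and 521 with siLuc (-0.03). NINJ1, a mediator of plasma membrane rupture in dying cells, read 850.0 with siIFITM1 and 908 with siLuc (-0.10). PHLDA3, a repressor of AKT signalling, read 453 with siIFITM1 and 543 with siLuc (-0.26), with a second probe set at 0.05. Of the 8 genes in this group 5 were above 0, with a median of 0.03.

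The repair genes were split evenly. POLH, which encodes the polymerase that copies past ultraviolet lesions, read 395 with siIFITM1 and 303 with siLuc (0.38), and its 4 probe sets past the filter ran from -0.16 to 0.96. XPC, the damage sensor of nucleotide excision repair, read 404 with siIFITM1 and 342 with siLuc (0.24). DDB2, which helps XPC find ultraviolet damage, read 883 with siIFITM1 and 924 with siLuc (-0.07). RRM2B, a ribonucleotide reductase subunit that supplies nucleotides for repair, read 416 with siIFITM1 and 429.7 with siLuc (-0.05). The 2 genes below 0 were brighter genes and differed from 0 by less than the within-gene SD, and so did the 2 above 0, which were dimmer genes.

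**Figure D3:**
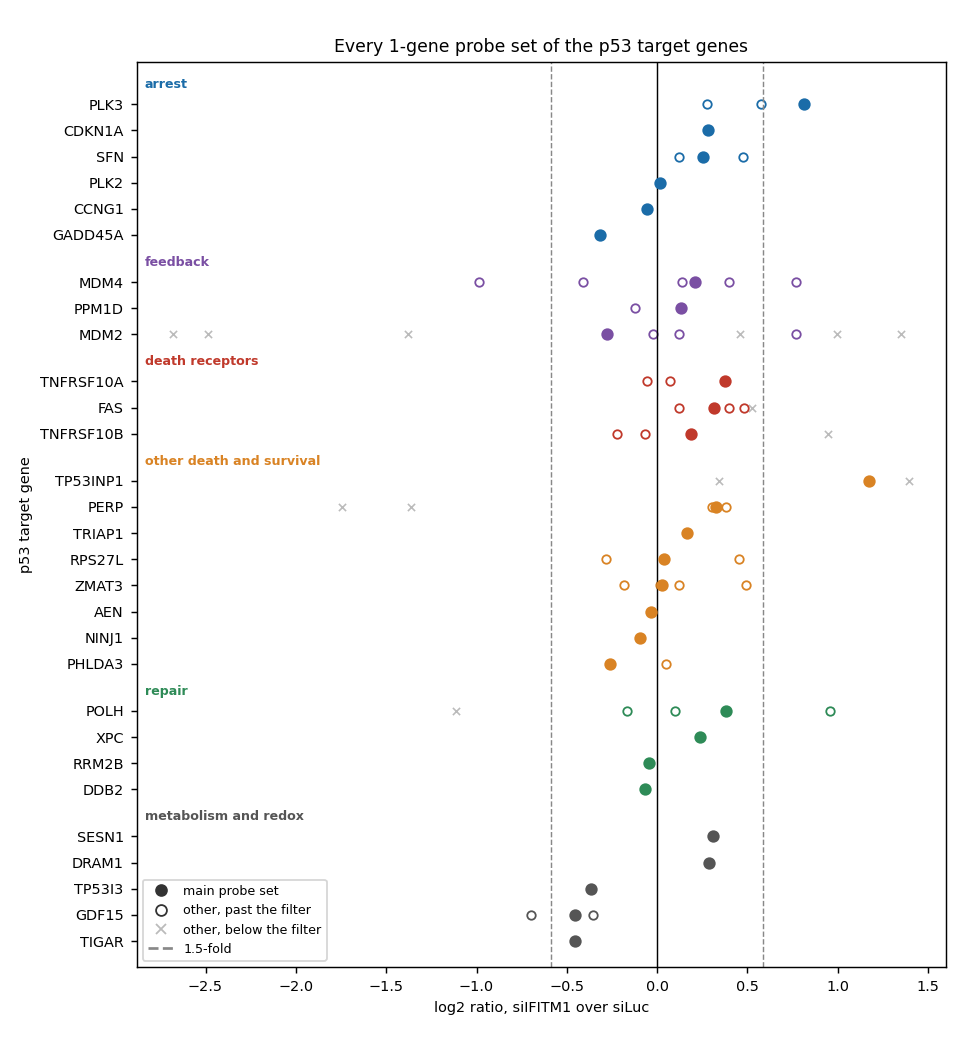
Log2 ratio, siIFITM1 over siLuc (horizontal), of every probe set that names 1 of the 29 p53 targets, by gene and role. Filled points are the main probe sets, open points the others past the filter, crosses those below it, and dashed lines 1.5-fold. SFN, PLK3, FAS and PERP lie above 0, and GDF15 below 0, at every probe set past the filter, while those of MDM2 and MDM4 spread to both sides.

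Members were placed in roles by hand, and several have more than 1. The group of metabolism and redox balance, in which GDF15 was placed, held the 3 lowest ratios of the list and also 2 genes above 0. TIGAR, a phosphatase that lowers glycolytic flux and raises antioxidant capacity, read 1526 with siIFITM1 and 2094 with siLuc, a log2 ratio of -0.46. GDF15, a secreted stress cytokine gene that acts on appetite and energy balance, read 5864 with siIFITM1 and 8035 with siLuc (-0.45). Its other probe sets read 187 and 78.5 with siIFITM1, against 239.9 and 127 with siLuc, with log2 ratios of -0.36 and -0.70. All 3 were lower, and the ratio of the dimmest passed 1.5-fold. TP53I3, a quinone oxidoreductase gene, read 516 with siIFITM1 and 665 with siLuc (-0.37). These 3 were brighter genes at their main probe sets. SESN1, a leucine-sensing inhibitor of mTORC1, was higher, at 420.2 with siIFITM1 and 339 with siLuc (0.31). DRAM1, a lysosomal protein gene of autophagy, read 276 with siIFITM1 and 226 with siLuc (0.29). The median of the 5 was -0.37. TIGAR and TP53I3 rest on 1 probe set each, and the TIGAR window of 300 bases held no match to the element. Its 250 bases before the start are shown as those of the lowest member.
TIGAR (chr12:4320963-4321212, + strand): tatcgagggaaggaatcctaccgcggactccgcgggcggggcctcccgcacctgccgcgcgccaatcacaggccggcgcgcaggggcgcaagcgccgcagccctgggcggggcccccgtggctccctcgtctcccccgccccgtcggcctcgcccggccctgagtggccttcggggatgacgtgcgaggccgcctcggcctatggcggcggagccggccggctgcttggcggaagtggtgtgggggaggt

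Agreement between probe sets was limited. Of 77 probe sets for the 29 genes 63 passed the filter, and 14 genes had 2 or more of these. In 5 of the 14 all had 1 sign (35.7%), which were SFN, PLK3, FAS and PERP above 0 and GDF15 below. The share was 48.4% of the 6087 genes on the whole array that had 2 or more.

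The rest of the pathway was described with a further 3 lists. Of 25 regulators of p53, 23 were measured and 10 of these were above 0, with a median of -0.05. COP1, a ubiquitin ligase for p53, read 2675 with siIFITM1 and 1857 with siLuc (0.53), with its other probe set at 0.04. The p53 relative TP73 read 89.3 with siIFITM1 and 144 with siLuc (-0.69), at 1 dim probe set past the filter. CREBBP, an acetyltransferase, was at -0.27 and TP53BP1, a damage response mediator, at -0.26, with all their probe sets past the filter below 0. TP73, a dimmer gene, was the 1 regulator at least 1.5-fold apart, against 11.5% of all genes past the filter. Of the 23 measured regulators 19 were brighter genes, and among all brighter genes that share was 3.63%.

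Of a further 32 known p53 targets 29 were measured and 26 passed the filter, 16 above 0, with a median of 0.04. TNFRSF10C, a decoy receptor for TRAIL, read 158 with siIFITM1 and 70.8 with siLuc (1.16). TP53AIP1, a mitochondrial apoptosis gene, read 51.0 with siIFITM1 and 112 with siLuc (-1.14). The first is read by a probe set with shared probes, and the siIFITM1 value of the second is below the filter line. EPHA2, an ephrin receptor, was at 0.55 and EDA2R, an ectodysplasin receptor, at -0.51. The pro-apoptotic BCL2 family genes BAX (-0.33, both probe sets lower) and PMAIP1 (0.20, both higher) differed in sign. Of the 26, TNFRSF10C was the 1 gene at least 1.5-fold higher and TP53AIP1 the 1 gene at least 1.5-fold lower, which is about the background of 4.18% and 7.34%.

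A last list held 16 cell cycle genes that p53 is known to repress through p21 and the DREAM complex. Of the 15 measured, all brighter genes, 13 were above 0 at their main probe sets. The median was 0.07, with a range of -0.03 to 0.36. Of all brighter genes 50.5% were above 0, with a median of 0.0031. CDK1, BIRC5, AURKA, BUB1, KIF23 and NEK2 also had a probe set past the filter below 0, the lowest at -0.32 (CDK1). The other genes above 0 had no such probe set. At main probe sets, CCNA2, KIF23, TTK and FOXM1 alone differed from 0 by more than the within-gene SD of 0.193, beside 39.3% of all brighter genes. CCNA2, the S and G2 cyclin gene, was at 0.36, the mitotic kinase gene TTK at 0.29, the transcription factor gene FOXM1 at 0.22 and the phosphatase gene CDC25C at 0.13. Of the 15, 0 were 1.5-fold apart, against 3.63% of all brighter genes, and whether the 13 differ from 0 was not tested.

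**Figure D4:**
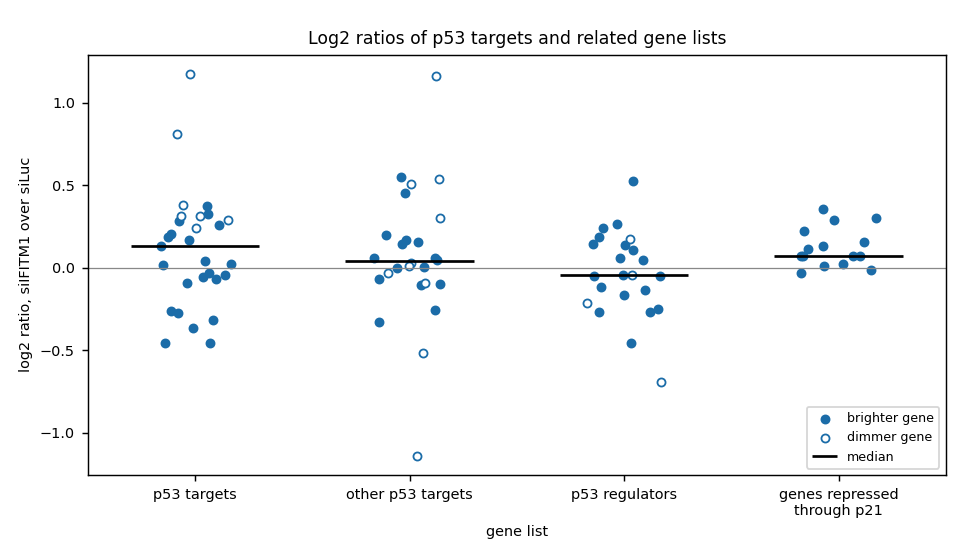
Log2 ratio, siIFITM1 over siLuc, of the members past the filter in the 29 p53 targets, 26 other p53 targets, 23 p53 regulators and 15 genes repressed through p21. Filled points are brighter genes, open points dimmer genes and bars medians, which lie at 0.13, 0.04, -0.05 and 0.07, and in the first 3 lists the point furthest from 0 is a dimmer gene. Horizontal scatter within a list has no meaning.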

How the data were processed

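Total RNA from both cultures was amplified to biotin-labelled cRNA and read on 1 single-colour array each, per the labels' protocols. The deposited intensities are MAS5 signals on a linear scale, per the submitters' processing notes, whose version was not stated there. Both arrays had the same mean after removal of 2% of probe sets at each end. Of 54613 probe sets that are not controls, 41091 named 1 gene in the probe table, 1801 several and 11721 none, and 41037 (99.9%) of the first were matched to the RefSeq table of GRCh38.p14 by Entrez identifier.

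Signals were taken to log2 as deposited. The main probe set of a gene was the one whose log2 signal, averaged over both arrays, was highest. The filter kept genes for which this mean reached the median of all non-control probe sets, 57.4 on the signal scale. No test was possible with 1 array per siRNA, and the number of arrays limits the precision. The members, lists and thresholds were chosen with earlier results of these data known. All members are named, and of each other list up to 4 genes with the largest absolute ratio whose probe sets past the filter share a sign, plus BAX, PMAIP1 and, named after its values were seen, CDX2. The calculation was tested on simulated data. Alternatives were median centring, quantile normalization, a loess trend (span 0.3), the mean over probe sets, a filter at the 75th percentile, a pseudocount of 32, no filter, and leaving out shared-probe sets (IDs with the endings _x_at and _s_at). Python 3.11.15, numpy 2.4.6, pandas 2.3.3, scipy 1.17.1, statsmodels 0.14.6 and matplotlib 3.10.9 were used.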

Additional observations from a re-analysis of the deposited data

How the results depend on the processing

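The median log2 ratio of the p53 targets was 0.13 as deposited and ran from -0.0083, with the filter at the 75th percentile, to 0.17 without shared-probe sets. The filter at the 75th percentile left 22 members, without TP53INP1 and PLK3. The count of members at least 1.5-fold higher was then 0, and it was 1 with the mean over probe sets, against 2 as deposited. The count at least 1.5-fold lower was 1 without shared-probe sets, where GDF15 was at -0.70, against 0 as deposited. The count at least 2-fold apart was 0 with a pseudocount of 32 and 0 with the filter at the 75th percentile, against 1. Many single-member values could not move under some alternatives. Neither change of the filter alters the value of a member that stays. The mean over probe sets cannot alter a gene with 1 probe set past the filter. Leaving out shared-probe sets cannot alter a gene whose main probe set is not one of them. With these values included, 213 of 219 single-member values under the alternatives moved by less than the within-gene SD. The other 6 were MDM2 (0.15 with the mean over probe sets and 0.12 without shared-probe sets), TNFRSF10A (0.13) and TNFRSF10B (-0.04) with the mean, and RPS27L (0.45) and GDF15 without shared-probe sets. MDM2 and TNFRSF10B changed sign there, as did AEN with median centring (0.0015) and PLK2 after quantile normalization (-0.0042). The 7 dimmer members kept a ratio above 0 under every alternative in which they passed the filter, with the lowest, 0.22, for XPC. This is a limited check, because every alternative used the same 2 arrays. The filter at the 75th percentile removed all 7, and leaving out the filter did not change their values. TP53INP1, SESN1, DRAM1 and XPC had 1 probe set past the filter each, so the mean over probe sets could not change them. FAS and SESN1 had no value past the filter without shared-probe sets. The median of the regulators ran from -0.05 to 0.07, that of the other targets from -0.0097 to 0.07 and that of genes repressed through p21 from 0.03 to 0.11. No scaling moved the median of all genes past the filter by more than 0.1 on the log2 scale. No paired analysis was possible because there was 1 array per siRNA.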

Other observations

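MIR34A, the gene of a microRNA that p53 is known to induce, has 1 probe set on the array that names it alone. It was looked up after the other values were seen. Its signal was 157 with siIFITM1 and 113 with siLuc, a log2 ratio of 0.47. The probe set is among the dimmer ones, and the ratio is smaller than the within-gene SD of 0.496 for such probe sets.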
